A study of Homo sapiens with 6 samples.

Results

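The genes described here build chromatin on newly copied DNA and copy its DNA methylation. They were chosen by name, with earlier results of these data known: CHAF1A and CHAF1B, ASF1A and ASF1B, NASP, SLBP, NPAT, HELLS, UHRF1 and DNMT1. All 10 were found in the deposited table, out of 22411 genes that had a single symbol in the platform annotation. Each was measured by 1 transcript cluster, a group of probes at a single locus, with no second feature of that symbol, so choosing the brightest feature changed nothing. The study used H460, an established human cell line from a large cell carcinoma of the lung, a non-small cell lung cancer (NSCLC). It compared 3 control arrays of cells that received no radiation with 3 arrays of cells irradiated with 7 Gy, and its stated question was the change in long noncoding RNA. Total RNA was hybridised to the Human Transcriptome Array, and the titles call the replicates biological. There was 1 cell line and 1 dose, and the sources used here do not state how long after irradiation the RNA was taken.

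When a replication fork passes, the old nucleosomes are disrupted and new ones are assembled on both daughter strands. CAF-1, which contains the products of CHAF1A and CHAF1B, places new histones H3 and H4 behind the fork, with ASF1 and NASP handing over and holding the histones. NPAT switches on the histone genes in S phase, and SLBP binds the stem-loop at the end of histone messenger RNAs, which have no poly(A) tail. After replication UHRF1 recognises DNA methylated on a single strand, DNMT1 methylates the other strand, and HELLS, a nucleosome remodeller, opens chromatin for this step.

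Irradiated H460 cells had lower mean signals of all 10 genes, and 9 of the 10 passed the test described below. HELLS fell the most, to 54.0% of the control signal, followed by CHAF1B (63.1%), SLBP (68.8%), UHRF1 (70.1%), DNMT1 (70.8%), ASF1B (72.0%) and NASP (74.3%). CHAF1A (82.7%) and NPAT (83.4%) fell by less. ASF1A, at 91.1% of the control signal, did not pass the test. A gene was called at an adjusted p under 0.05 by limma, with Benjamini-Hochberg adjustment over all 67528 transcript clusters. By that rule 2.8% of all transcript clusters, and 5.52% of the genes with 1 symbol, were called lower. None of the 10 was called higher, against 2.25% of all transcript clusters (0 by limma, 0 at an unadjusted p under 0.05, and 0 with trended or with unmoderated variances). The median log2 difference of the 10, irradiated minus control, was -0.49, against 0.01 for the genes with 1 symbol. In RNA from whole cultures, fewer cells in S phase and less RNA per cell cannot be told apart.

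**Figure D1:**
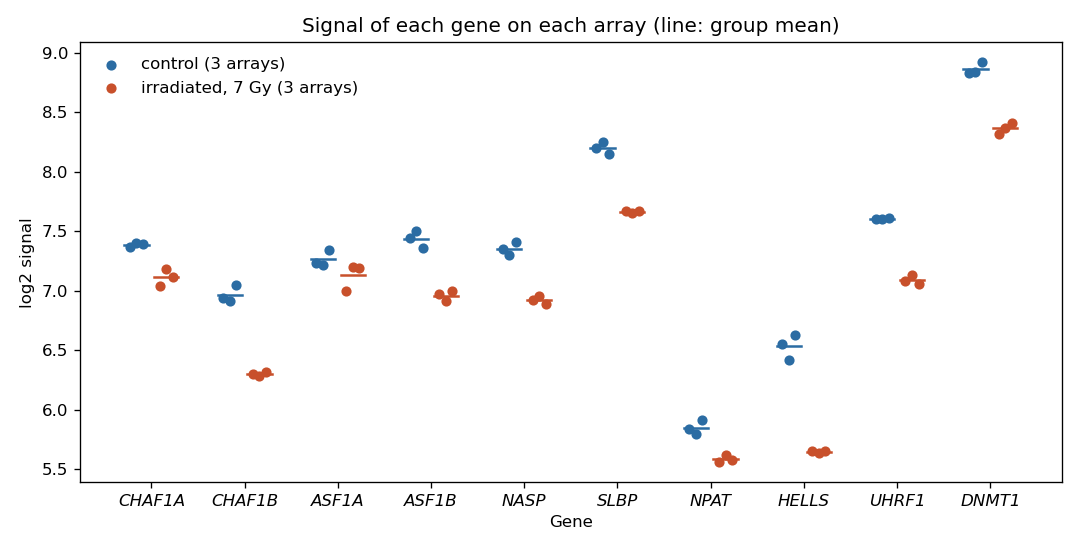
Log2 signal (vertical axis) of each of the 10 genes (horizontal axis) on each array, with 3 control arrays in blue and 3 irradiated arrays in red, and lines at the group means. Every irradiated point lies below every control point of the same gene, with the widest gap for HELLS (0.77) and the narrowest for ASF1A (0.02).

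The deposited signals were alike between arrays. Array medians over transcript clusters ran from 4.65 to 4.70, and Pearson correlations between arrays, across features, were 0.9955 to 0.9975 within groups and 0.9938 to 0.9948 between groups. Both were taken from signals the authors had already processed, so they do not measure RNA or array quality. The keratin gene KRT8, a marker of epithelial cells, had a mean log2 signal of 10.86, while the epithelial adhesion gene EPCAM was at 4.04, near the median of the background control features (3.74). Summed over 7 epithelial markers, the linear signal was 4380 to 4420 on control arrays and 4390 to 4440 on irradiated arrays. This sum hides changes in both directions. KRT19 had a log2 difference of 0.17, KRT18 of -0.15 and KRT7 of -0.19, each without overlap of the groups and not called. Of the 22411 genes with 1 symbol, 3588 had all irradiated arrays lower and 4286 had all of them higher. Summed over 7 fibroblast markers the linear signal was 266 to 279 on control arrays and 275 to 284 on irradiated arrays. Over 7 blood cell markers it was 621 to 681 and 730 to 779, with groups that did not overlap. Of these, CD68, a lysosomal protein of macrophages that other cells also make, had a mean of 9.06 and a difference of 0.28. CD14, a monocyte receptor, had 6.22, 6.16 and 6.15 on control arrays and 6.02, 5.99 and 6.01 on irradiated arrays, a difference of -0.17. PTPRC (2.88) and MS4A1 (3.06), which define leukocytes and B cells, lay under the background median. The other blood cell markers, CD3E (5.11), ITGAM (5.30) and HBB (3.76), lay above it. Limma called 0 of these 21 markers, with 6 at an unadjusted p under 0.05, and 1 with trended and 0 with unmoderated variances. Of the 22411 genes with 1 symbol, 5519 had an unadjusted p under 0.05, and limma called 5.52% lower and 3.65% higher. The counts of the markers are near these shares. The part of the markers in the results was not tested. Log2 means of all 10 genes of interest were above the background median. The 23 background control features had means from 2.17 to 11.67, so their median is a reference level and not a limit of detection.

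Promoter sequences are shown for the 3 genes of DNA methylation and for CHAF1A, ASF1B and ASF1A. Those of CHAF1B, NASP, SLBP and NPAT, which were called lower and held none of the motifs marked in capitals, are not shown. All 10 genes matched a RefSeq promoter entry (GRCh38.p14, 250 bases before to 50 bases after the start), with 3 alternative starts for UHRF1 and 12 windows in all. Letters were searched on both strands for the E2F consensus (TTTCCCGC, TTTCGCGC, TTTGCCGC or TTTGGCGC), the E2F4 core GGCGGGAA, the cell cycle homology region TTTGAA and the CCAAT box. The reverse complement of the first consensus form overlaps the E2F4 core in 7 of its letters. E2F proteins are transcription factors of S phase genes, and the cell cycle homology region is bound by the MuvB complex. Capitals mark matches to the first 3 motifs. The windows are chr10:94545538-94545837 on the plus strand for HELLS, chr19:4909251-4909550 on the plus strand for UHRF1 (the first of its starts), chr19:10194904-10195203 on the minus strand for DNMT1, chr19:4402390-4402689 on the plus strand for CHAF1A, chr19:14136540-14136839 on the minus strand for ASF1B and chr6:118893902-118894201 on the plus strand for ASF1A.
HELLS: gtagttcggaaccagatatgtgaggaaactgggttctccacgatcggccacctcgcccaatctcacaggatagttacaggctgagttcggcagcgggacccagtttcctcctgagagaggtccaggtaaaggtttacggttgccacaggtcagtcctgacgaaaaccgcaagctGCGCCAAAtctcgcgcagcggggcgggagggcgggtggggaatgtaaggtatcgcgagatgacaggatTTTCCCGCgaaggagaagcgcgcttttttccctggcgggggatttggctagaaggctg
UHRF1: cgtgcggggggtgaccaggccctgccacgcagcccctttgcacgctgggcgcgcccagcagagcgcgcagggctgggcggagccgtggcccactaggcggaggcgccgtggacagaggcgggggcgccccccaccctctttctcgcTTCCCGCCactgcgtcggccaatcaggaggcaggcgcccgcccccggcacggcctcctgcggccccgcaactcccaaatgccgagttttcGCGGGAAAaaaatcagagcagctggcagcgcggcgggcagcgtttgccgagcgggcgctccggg
DNMT1: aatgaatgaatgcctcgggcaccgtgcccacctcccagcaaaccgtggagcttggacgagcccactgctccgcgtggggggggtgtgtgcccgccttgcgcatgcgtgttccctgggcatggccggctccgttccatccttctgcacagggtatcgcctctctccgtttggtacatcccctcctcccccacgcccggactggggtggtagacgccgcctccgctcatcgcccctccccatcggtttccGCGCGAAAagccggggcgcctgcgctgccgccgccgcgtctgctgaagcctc
CHAF1A: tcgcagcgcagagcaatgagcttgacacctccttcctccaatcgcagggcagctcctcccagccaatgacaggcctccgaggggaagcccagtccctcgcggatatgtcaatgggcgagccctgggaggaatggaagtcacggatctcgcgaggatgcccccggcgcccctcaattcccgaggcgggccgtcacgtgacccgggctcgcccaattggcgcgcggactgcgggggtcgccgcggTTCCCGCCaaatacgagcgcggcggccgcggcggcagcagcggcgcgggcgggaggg
ASF1B: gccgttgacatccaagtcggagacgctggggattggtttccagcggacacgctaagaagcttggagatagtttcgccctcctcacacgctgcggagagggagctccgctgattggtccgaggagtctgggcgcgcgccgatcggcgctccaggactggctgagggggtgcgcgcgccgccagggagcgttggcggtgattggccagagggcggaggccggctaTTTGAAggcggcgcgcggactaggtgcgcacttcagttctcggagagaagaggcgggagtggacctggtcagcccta
ASF1A: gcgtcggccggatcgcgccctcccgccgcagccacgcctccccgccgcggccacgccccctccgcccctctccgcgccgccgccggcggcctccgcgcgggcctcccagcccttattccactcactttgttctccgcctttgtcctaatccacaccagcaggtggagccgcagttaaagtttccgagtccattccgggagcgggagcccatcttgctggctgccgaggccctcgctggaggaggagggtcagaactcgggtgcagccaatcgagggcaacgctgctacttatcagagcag

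The E2F consensus was found in HELLS, UHRF1 and DNMT1, which is 3 of 10 genes and 4 of their 12 windows. It was found in 3.31% of the 35116 RefSeq promoter windows of all genes. The match of HELLS nearest its start began 8 bases before it, with another 76 bases before. The match of DNMT1 began 2 bases before the start, and that of the UHRF1 window shown 14 bases before. The E2F4 core was found in CHAF1A, 7 bases before the start, and in UHRF1, 104 bases before, against 3.16% of all windows. The cell cycle homology region was found in ASF1B, 27 bases before the start, against 15.2% of all windows. ASF1A had none of these 3 motifs in its window and had a CCAAT box 16 bases into the transcript. CCAAT boxes were present in 7 of the 10 genes, in 8 of their 12 windows and in 34.6% of all windows. CHAF1B, NASP, SLBP and NPAT, which were called lower, also held none of the first 3 motifs in their windows. The 12 windows held 17 to 46 CpG dinucleotides, against a median of 14 over all windows. Their GC content was 57.7% to 79.7%, against a median of 58.7% over all windows. The shares of windows with a motif were not adjusted for this. Of the 10 genes, 4 (CHAF1A, ASF1B, UHRF1 and DNMT1) lie on chromosome 19.

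CAF-1 is the chaperone tethered to the replication clamp, and both of its subunits among the 10 genes had lower signals on every irradiated array. CHAF1B, the middle subunit, had log2 signals of 6.94, 6.91 and 7.05 on control arrays 1 to 3 and 6.30, 6.28 and 6.32 on irradiated arrays 1 to 3. All irradiated arrays were low, and the groups were 0.58 apart. It fell by 0.67 on the log2 scale (SE 0.053, limma adjusted p = 0.00104). CHAF1A, the large subunit, had 7.37, 7.40 and 7.39 on control arrays and 7.04, 7.18 and 7.12 on irradiated arrays. The groups did not overlap, with the lowest value on irradiated array 1. It fell by 0.27 (SE 0.051, limma adjusted p = 0.0274), and it stayed past the threshold in 1 of the 6 fits with an array removed, that without irradiated array 2 (limma adjusted p from 0.0425 to 0.109 over the 6 fits). Without moderation of the variances its adjusted p was 0.0667. The third subunit, RBBP4, named after its values were seen, fell by 0.39 (SE 0.048, limma adjusted p = 0.00519).

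ASF1A and ASF1B are paralogous chaperones that carry H3 and H4 to CAF-1 and, chiefly for ASF1A, to the replication-independent HIRA pathway. ASF1B had 7.44, 7.50 and 7.36 on control arrays and 6.97, 6.91 and 7.00 on irradiated arrays, a clear separation of the groups. It fell by 0.47 (SE 0.054, limma adjusted p = 0.00402). ASF1A had 7.23, 7.22 and 7.34 on control arrays and 7.00, 7.20 and 7.19 on irradiated arrays. Irradiated arrays 2 and 3 lay close to the lowest control, with a gap of 0.02 between the groups. Its difference was -0.13 (95% confidence interval -0.30 to 0.03, limma adjusted p = 0.365), so a fall of up to 0.30 is within the interval. Without irradiated array 1 the difference was -0.07, and it was -0.17 to -0.07 over the 6 fits with an array removed. NASP, which keeps a reserve of soluble H3 and H4, had 7.35, 7.30 and 7.41 on control arrays and 6.92, 6.96 and 6.89 on irradiated arrays. The groups were 0.34 apart, and NASP fell by 0.43 (SE 0.048, limma adjusted p = 0.00384).

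The genes that make and process histone messenger RNA both had lower signals. SLBP had 8.20, 8.25 and 8.15 on control arrays and 7.67, 7.65 and 7.67 on irradiated arrays, with irradiated arrays nearly equal. It fell by 0.54 (SE 0.045, limma adjusted p = 0.00127). NPAT had 5.84, 5.80 and 5.91 on control arrays and 5.56, 5.62 and 5.58 on irradiated arrays. The gap between groups was 0.18, and NPAT fell by 0.26 (SE 0.048, limma adjusted p = 0.0255). NPAT missed the threshold in each of the 6 fits with an array removed (limma adjusted p from 0.0627 to 0.0981) and without moderation of the variances (0.0507). NPAT starts 429 bases from ATM, the kinase gene of the DNA break response, which is transcribed the other way. ATM had 6.27, 6.20 and 6.26 on control arrays and 6.22, 6.19 and 6.20 on irradiated arrays, with overlap, and a difference of -0.04 (95% confidence interval -0.14 to 0.07, limma adjusted p = 0.729). The difference between the responses of NPAT and ATM was not tested. ASF1B had the other divergent neighbour within 1000 bases, ADGRL1-AS1, with starts 563 bases apart and a difference of -0.13 (95% confidence interval -0.37 to 0.10, limma adjusted p = 0.543). That difference was -0.06 without control array 2 and -0.25 without control array 3.

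The 3 genes of methylation maintenance fell on every irradiated array. HELLS had 6.55, 6.42 and 6.63 on control arrays and 5.65, 5.64 and 5.65 on irradiated arrays. The spread of the controls (SD 0.11) was small beside the gap of 0.77. HELLS fell by 0.89 (SE 0.061, limma adjusted p = 0.000613) and ranked 33 of 22411 genes from the most negative difference. UHRF1, which brings DNMT1 to newly copied DNA, had 7.60, 7.60 and 7.61 on control arrays and 7.08, 7.13 and 7.06 on irradiated arrays. It fell by 0.51 (SE 0.043, limma adjusted p = 0.00119). DNMT1, the maintenance methyltransferase, had 8.83, 8.84 and 8.92 on control arrays and 8.32, 8.37 and 8.41 on irradiated arrays. Here too the groups were far apart, and DNMT1 fell by 0.50 (SE 0.049, limma adjusted p = 0.0023).

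**Figure D2:**
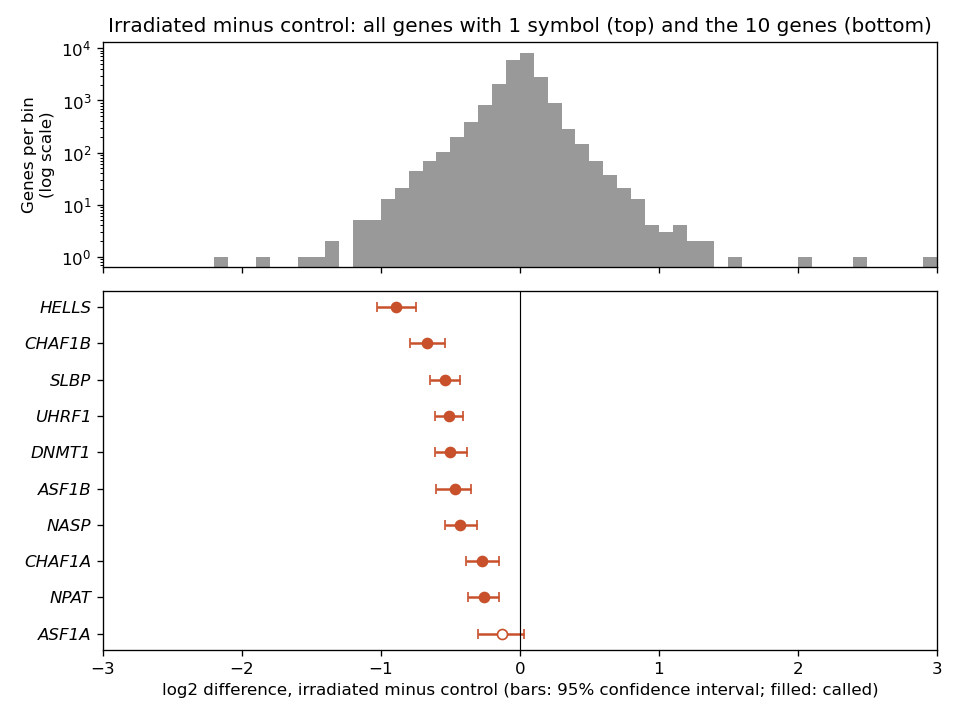
Top, number of genes with 1 symbol (log scale) in bins of the log2 difference, irradiated minus control. Bottom, the difference of each of the 10 genes with its 95% confidence interval (n = 3 against 3), filled where called. All 10 points are negative, from -0.89 for HELLS to -0.13 for ASF1A, and the interval of ASF1A reaches 0.03.

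In order of size the differences ran HELLS, CHAF1B, SLBP, UHRF1, DNMT1, ASF1B, NASP, CHAF1A, NPAT and ASF1A. The 95% confidence intervals of neighbours in this order overlapped, including HELLS (-1.03 to -0.75) and CHAF1B (-0.79 to -0.54). The interval of HELLS did not overlap those of the 8 genes after CHAF1B. The groups did not overlap for any of the 10 genes, with irradiated arrays lower, which was also true of 9.41% of all transcript clusters and 16% of genes with 1 symbol. For 7 genes (CHAF1B, ASF1B, NASP, SLBP, HELLS, UHRF1 and DNMT1) the call held in each of the 6 fits that left out 1 array, with limma adjusted p between 0.00264 and 0.0267.

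**Figure D3:**
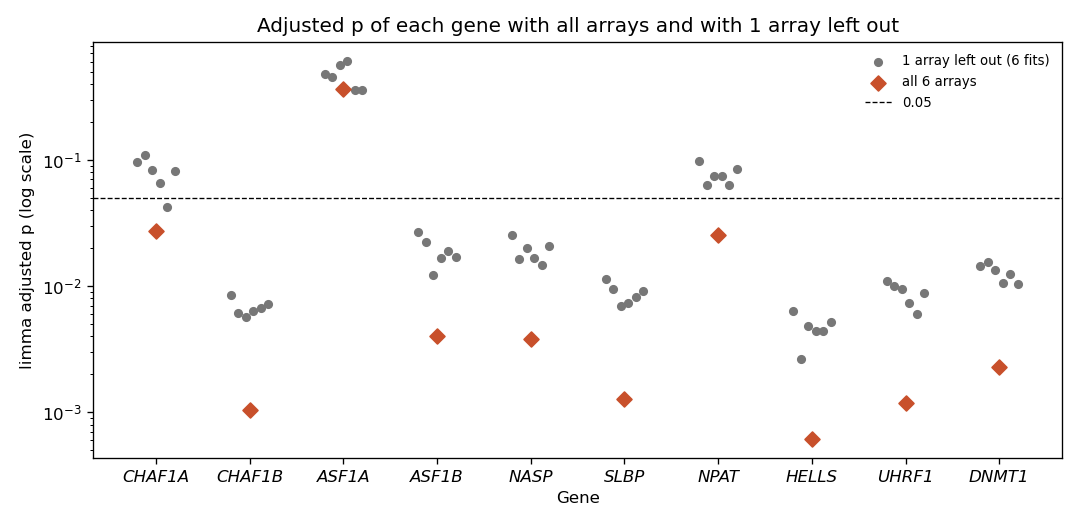
Limma adjusted p (vertical axis, log scale) of each gene with all 6 arrays (red diamonds) and in the 6 fits that left out 1 array each (grey points), with the threshold of 0.05 as a dashed line. The grey points of NPAT, 5 of the 6 of CHAF1A and all points of ASF1A lie above the threshold.

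Related genes were also compared directly, by the change in the difference between their signals. ASF1B minus ASF1A was 0.21, 0.28 and 0.02 on control arrays and -0.03, -0.29 and -0.19 on irradiated arrays, a change of -0.34. CHAF1A minus CHAF1B was 0.43, 0.50 and 0.34 on control arrays and 0.74, 0.90 and 0.80 on irradiated arrays, a change of 0.39. UHRF1 minus its paralog UHRF2 was 1.58, 1.58 and 1.55 on control arrays and 1.15, 1.22 and 1.12 on irradiated arrays, a change of -0.41. In each of the 3 pairs the groups did not overlap. The two-sided exact permutation test gave p = 0.1 for each (0.1 adjusted over the 3 pairs), the smallest that 3 against 3 arrays allow, so none could pass 0.05.

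**Figure D4:**
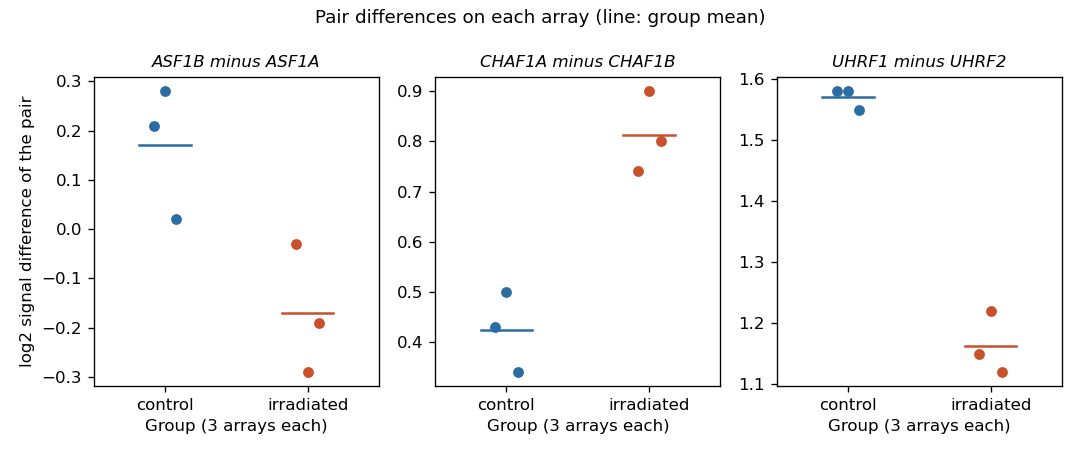
Difference of log2 signals within 3 gene pairs (vertical axis, a scale of its own in each panel) on each control and irradiated array, with lines at group means. ASF1B minus ASF1A and UHRF1 minus UHRF2 are lower on all irradiated arrays, and CHAF1A minus CHAF1B is higher.

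Genes that work beside these 10 were described from 4 lists, also chosen with earlier results of these data known. Of 53 measured partners, 15 fell, 3 rose and 35 did not pass, with a median difference of -0.07. By the same rule 5.52% of genes with 1 symbol were called lower and 3.65% higher. Among 13 partners in histone supply and deposition, 6 fell and 7 did not pass, with a median of -0.15. SUPT16H and SSRP1, the subunits of the histone chaperone FACT, fell by 0.74 and 0.56. HAT1, which acetylates new histone H4, fell by 0.43 and its partner RBBP7 by 0.40. RBBP4 and MMS22L, a replication fork protein named after its values were seen (-0.32), were the others. The brightest partners that did not pass were the chaperone gene NAP1L1 (-0.13) and the histone importin gene IPO4 (-0.07). MMS22L was called in 1 of the 6 fits with an array removed, that without control array 2 (limma adjusted p up to 0.0886).

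Replication-independent deposition had 3 genes that fell and 1 that rose among 10, with a median of -0.01. HJURP, the chaperone of the centromeric histone CENP-A, fell by 0.83, ANP32E, a chaperone of H2A.Z, by 0.77, and DEK by 0.60. ATRX, which deposits H3.3 with DAXX at repeats, had 7.11, 7.09 and 7.15 on control arrays and 7.46, 7.38 and 7.42 on irradiated arrays. It rose by 0.30 (SE 0.045, limma adjusted p = 0.0111), without overlap of the groups, and lost its call without control array 1 or control array 2 (limma adjusted p up to 0.0591). All irradiated arrays were also higher than all controls for 4286 of the 22411 genes with 1 symbol. The chromatin remodelling genes EP400 (-0.06) and SRCAP (0.05) did not pass.

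Of 10 genes for the processing of histone messenger RNA ends, 3 fell and 7 did not pass, with a median of -0.14. CSTF2, a cleavage stimulation factor, fell by 0.51, CASP8AP2, known as FLASH, by 0.27 and the endonuclease gene CPSF3 by 0.25. CPSF2 (-0.25) and the scaffold gene SYMPK (0.12) did not pass. With an array removed, CPSF3 missed the threshold in all 6 fits (limma adjusted p up to 0.123), and CASP8AP2 in 4 of the 6 (up to 0.0729).

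Among 20 partners in DNA methylation, 3 fell, 2 rose and 15 did not pass, with a median of -0.01. CDCA7, which activates the HELLS remodeller, had 6.76, 6.89 and 6.98 on control arrays and 6.14, 6.24 and 6.19 on irradiated arrays. It fell by 0.69 (SE 0.065, limma adjusted p = 0.00198), and its paralog CDCA7L fell by 0.76. PCLAF, a protein bound to the replication clamp that helps to recruit DNMT1, fell by 0.74 (SE 0.062, limma adjusted p = 0.00125). The histone methyltransferase gene SETDB1 rose by 0.23, and so did ZBTB38, which encodes a reader of methylated DNA and was named after its values were seen. Neither SETDB1 nor ZBTB38 passed in any of the 6 fits with an array removed (limma adjusted p up to 0.143 and 0.122). MBD2, a methyl-CpG binding protein gene, had -0.01, and USP7, a deubiquitinase that acts on UHRF1 and DNMT1, had -0.22. Neither passed, nor did UHRF2 (-0.10, limma adjusted p = 0.253). The de novo methyltransferases DNMT3A (0.10) and DNMT3B (-0.10), named after their values were seen, did not pass either (limma adjusted p = 0.286 and 0.417).

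**Figure D5:**
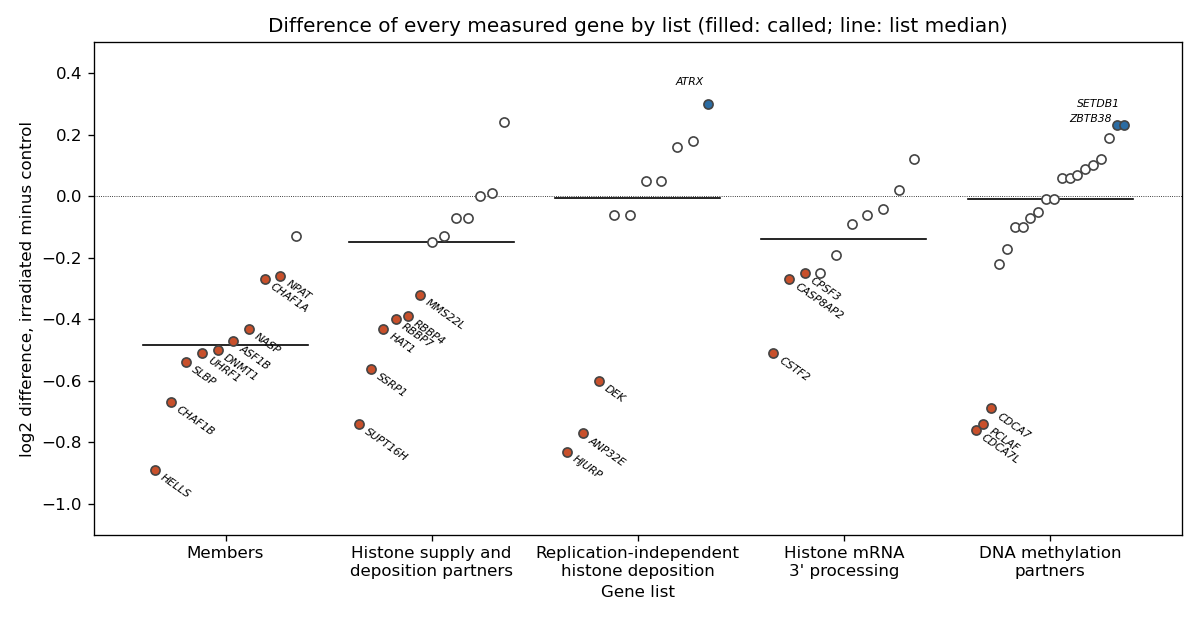
Log2 difference, irradiated minus control (vertical axis), of each measured gene in the 10 members and the 4 partner lists (horizontal axis), filled where called, with a line at each list's median. The median of the members is -0.49 and those of the partner lists lie between -0.15 and -0.01, with each partner list holding 3 or more called genes that fell.

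The mean centred signal of the 10 genes was 0.22, 0.21 and 0.26 on control arrays and -0.26, -0.22 and -0.22 on irradiated arrays. The genes whose centred signals over the 6 arrays lay nearest to this mean were CCT5, a chaperonin subunit (root mean square difference 0.013 on the log2 scale), the heat shock protein gene HSP90AA1 (0.016), the pseudogene ANAPC1P1 (0.019), the adenylyl cyclase gene ADCY3 (0.022) and the centromere protein gene CENPN (0.022). This ranks genes by a similar size of fall, with no test. Probes of ANAPC1P1 may also take up RNA of its parent gene.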

How the data were processed

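Signals were measured on 6 arrays of H460 RNA (TRIzol extraction, biotin label, per the labels' protocols). The authors deposited log2 gene-level signals. The array descriptions name RMA, per the labels, and MAS5 is the tool in the submitters' processing notes, so which method made the values is not settled. The sources used here state neither the software version nor the annotation build. Arrays have no depth, and their number limits the precision. No detection calls were used, so differences of dim features may be understated.

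Of 70523 features, 67528 transcript clusters entered a two-sided test by lmFit and eBayes (limma 3.58.1, R 4.3.3; Benjamini-Hochberg, threshold 0.05). Symbols came from the platform annotation, updated through RefSeq (GRCh38.p14), in which 23777 of 23781 features with 1 symbol were found; the brightest feature stood for a gene. Pair differences used the exact permutation test in SciPy 1.17.1. The limma script was tested on simulated data. The genes and lists were chosen with earlier results of these data known. Named were the 10 genes, up to 4 called genes with the largest change and the 2 brightest not called per list, 5 nearest patterns, divergent neighbours and UHRF2 as the partner of a pair. Marker and germline genes were named after their values were seen, and other such names are marked. Some listed genes are not reported here. Alternatives were the trended and the unmoderated test, a replicate block, all features, no dim features, other scalings and leaving out each array.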

Additional observations from a re-analysis of the deposited data

How the results depend on the processing

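All 10 genes kept a negative difference under the 13 alternatives, but only the other scalings could have changed a sign. The other tests and feature sets use the same group means. Groups that do not overlap keep the sign of their difference when an array is left out. The number called lower, 9, was 7 with the unmoderated test or the replicate block, 7 to 8 on leaving out 1 array, and 9 under the other 5 alternatives; CHAF1A and NPAT were the calls lost. The count over all transcript clusters, 3411, was 1598 with the replicate block and 1559 to 2379 on leaving out 1 array. Among partners, 15 fell, with 12 to 18 over the alternatives. The 3 that rose became 0 by limma with the replicate block (7 at an unadjusted p under 0.05) and 0 to 1 on leaving out 1 array, while the trended test called 4 and the unmoderated test 3. Fits with fewer arrays or with the block have fewer residual degrees of freedom. The titles do not say whether same-numbered arrays were paired. Deviations from group means correlated at 0.061, -0.078 and 0.006 for numbers 1, 2 and 3, and at -0.143 to 0.144 for arrays with different numbers. With 3 arrays per group these values cannot decide whether arrays were paired. The pair differences kept their sign under the 9 alternatives run for each, but here too only the other scalings could have changed it. Within replicate numbers the exact sign-flip permutation gave p = 0.25 for each pair. Averaging features per symbol changed nothing for the 10 genes, which have 1 each.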

Other observations

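Germline genes, several of which are known to be silenced by promoter methylation in somatic cells, were looked at as a list of 20, chosen after the values of the 10 genes were seen. Of 17 measured, 0 were called by limma, whose unadjusted p was under 0.05 for 2, and 0 with trended or with unmoderated variances. Limma called 5.52% of the 22411 genes with 1 symbol lower and 3.65% higher, and 5519 had an unadjusted p under 0.05. In a list of 17, a count of 0 is near the shares called. The median log2 difference of the 17 was 0.04, with NLRP2, a maternal effect gene, at 0.14 and TKTL2 at -0.17 as the highest and the lowest. DAZL, a germ cell RNA-binding protein gene, had 3.25, 3.26 and 3.25 on control arrays and 3.26, 3.38 and 3.31 on irradiated arrays. Of the 17, 8 lay above the median of the background control features, and a change in the others may not be detectable.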
